A study of Arabidopsis thaliana with 4 samples.

Results

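The set described here holds 23 of the 22746 probe sets of an Arabidopsis thaliana array, chosen by their intensities, which were low in shoot apices kept in short days and clearly higher after a move to long days. A probe set belonged to it when its scaled intensity was below 60 on both arrays of the SD30 group and 150 or more on both arrays of the SD30_LD7 group. Within these limits lay 29 probe sets, 0.127 percent of all, and the 6 measuring AT5G44630, WSD1, AT1G02190, BAT1, UFO and AT2G16210 were left out by name. The values of all 4 arrays chose the members, so their intensities and differences are given as a description, without a test.

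RNA came from dissected shoot apices of the wild-type accession Col-0, the meristem with its youngest organs, and each sample was hybridised to 1 array. SD30_LD7 plants (2 samples) had grown for 30 days in short days and then for 7 days in long days, and SD30 plants (2 samples) for 30 days in short days only. The shifted plants were therefore also 7 days older, so day length and age cannot be told apart. Whether the 2 samples of a group were grown separately is not in the labels, so the p-values rest on a spread that may be technical only.

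Arabidopsis flowers earlier in long days than in short days. In long days the FT protein made in leaves travels to the shoot apex, where it acts together with the bZIP factor FD, and the apex then turns from making leaves to making flower primordia on its flanks. Genes of flower formation are typically off in a vegetative apex and come on in small groups of cells, so a whole apex dilutes their signal. In such bulk samples, more cells with a transcript and more transcript per cell cannot be told apart.

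The annotation names 4 of the 23 members, and the other 19 are unnamed here. Unnamed were thus 82.6 percent of the members, against 38.4 percent of all probe sets and 28.9 percent of those below 60 on both SD30 arrays. The members' share is raised by the rule, which left out 6 probe sets by gene name and so removed only named ones. All 29 probe sets within the limits hold the same 19 unnamed ones. The 4 named members therefore may not represent the set. The named members are AT4G00870, a bHLH transcription factor related to the JAM repressors of jasmonate responses, AT1G03710, a protein of the superfamily of the cystatins, which inhibit cysteine proteases, AT5G02230, a hydrolase of the haloacid dehalogenase superfamily, and AT4G19430. No other probe set that the annotation pairs with 1 gene measured any of these 4 genes. No detection calls come with the intensities used here, so "low" below means under the limit of 60, and the data do not show that a transcript was absent. An intensity of 60 lay above 34.0 and 32.3 percent of all probe sets on the SD30 arrays, and an intensity of 23.5, the 20th percentile of all values, was used as a floor in every fold change. The 2 SD30 arrays put 14 members above this floor on both, 5 on 1 array and 4 on neither, so for most of the set a low signal in short days was still above the floor.

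AT4G00870, the regulator among the named members, had intensities of 202 and 269.9 on the SD30_LD7 arrays, against 14.9 and 3.8 on the SD30 arrays. Both short day values lay below the floor, so its mean of 236 ± 48.0 after the shift (SD, n = 2) is given as at least 9.94-fold higher. AT4G19430 had 414 and 490.3 in SD30_LD7 apices and 29.3 and 10.4 in SD30 apices, a 17.2-fold difference that is understated because 1 SD30 array was at the floor. It was the brightest of the named members after the shift, and its lowest shifted value was 14.1 times its highest short day value.

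AT1G03710 had 223 and 202 in SD30_LD7 apices and 45.8 and 43.7 in SD30 apices. Here both short day arrays were above the floor and close to each other, and the means were 212 ± 15.2 after the shift and 44.8 ± 1.48 in short days (SD, n = 2 each), a 4.74-fold difference. AT5G02230 had 162 and 228 in SD30_LD7 apices and 26.4 and 27.6 in SD30 apices, a 7.12-fold difference. Its shifted arrays were the farthest apart of the 23 members, with a ratio of 1.40 between them, while its short day arrays nearly coincided.

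**Figure D1:**
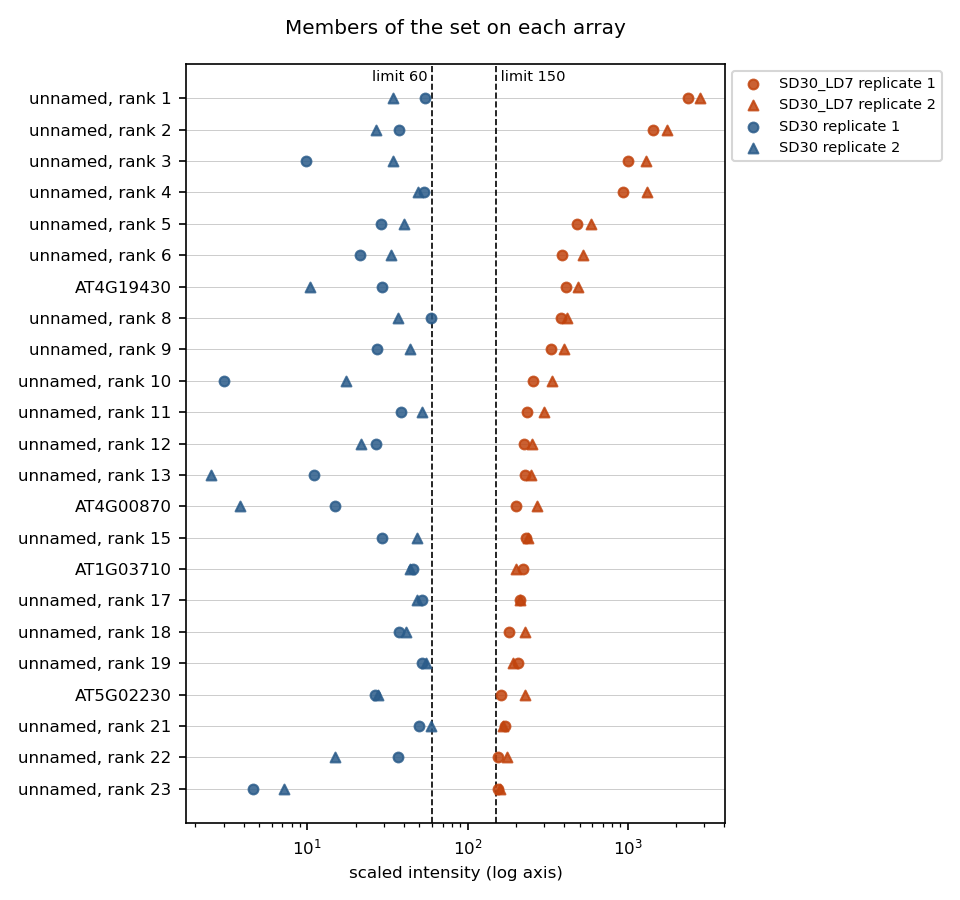
Scaled intensity (horizontal log axis) of each of the 23 members on the SD30_LD7 arrays (orange) and the SD30 arrays (blue), with circles for replicate 1, triangles for replicate 2 and dashed lines at the limits of 60 and 150. Members run down the page by their mean on the SD30_LD7 arrays, unnamed ones being given by that rank. The short day values spread over a wide range down to 2.5, while the values after the shift reach 2839.

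The brightest members after the shift are unnamed here. Probe sets differ in how strongly they bind their targets, so the order of brightness is used only to identify members and is no order of transcript abundance. The brightest had 2379.9 and 2839 on the SD30_LD7 arrays and 54.3 and 34.1 on the SD30 arrays, means of 2609 ± 325 and 44.2 ± 14.3 (SD, n = 2 each). That was a 60.4-fold difference, the largest of the 23 with the floor applied. Its short day values were both above the floor, so the size of this fold does not rest on the floor. Its place as the largest does, because folds of members with a short day value below the floor are understated. The second brightest had 1443 and 1745.5 in SD30_LD7 apices and 37.1 and 26.9 in SD30 apices, a 50.2-fold difference, also with no value at the floor. Its SD30 replicate 2 value lay at percentile 18.8 of that array, and without detection calls it is not known to be signal. On the SD30_LD7 arrays the brightest lay above 94.5 and 95.8 percent of all probe sets, and the second brightest above 89.3 and 91.7 percent.

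The third brightest member had 1008 and 1300.5 in SD30_LD7 apices and 9.8 and 34.5 in SD30 apices, a 40.2-fold difference, its first short day array being at the floor. The fourth had 935 and 1309.8 in SD30_LD7 apices and 53.3 and 48.9 in SD30 apices, a 21.7-fold difference. These 4 probe sets were the members with a mean above 1000 after the shift, and each was higher on the second SD30_LD7 array. The 3 brightest made up 45.5 and 45.9 percent of the summed intensity of all members on the SD30_LD7 arrays, sums of 10611 and 12828 that compare with 749 and 751 on the SD30 arrays.

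A middle group of 5 members had means between 300 and 1000 after the shift, among them AT4G19430. The fifth brightest member had 484 and 587 in SD30_LD7 apices and 28.8 and 40 in SD30 apices, a 15.7-fold difference. The sixth had 388 and 525.5 in SD30_LD7 apices and 21.3 and 33.2 in SD30 apices, or 16.2-fold with 1 short day array at the floor. Neither had a value within 20 percent of a limit. The eighth had 383 and 419.6 in SD30_LD7 apices and 59.5 and 36.8 in SD30 apices, an 8.57-fold difference, and its first short day array was the member value nearest to the limit of 60. The ninth had 332.5 and 398 in SD30_LD7 apices and 27.3 and 43.7 in SD30 apices, or 10.5-fold.

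The remaining 14 members had means below 300 after the shift. Of these, 3 unnamed ones lay at the floor on both short day arrays, as AT4G00870 did. The tenth brightest member had 255 and 337 in SD30_LD7 apices and 3 and 17.5 in SD30 apices, at least a 12.5-fold difference. The thirteenth had 229 and 249 in SD30_LD7 apices and 11 and 2.5 in SD30 apices, at least 10.2-fold. For these the short day signal was in the dimmest 20 percent of all values, and the size of the difference is known only as a bound. The dimmest member after the shift had 155 and 159 in SD30_LD7 apices and 4.6 and 7.2 in SD30 apices, at least 6.67-fold, and so joined the set just above the limit of 150.

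Other dim members had short day values well above the floor, and for them the difference was small. The eleventh had 235 and 300.2 in SD30_LD7 apices and 38.6 and 51.8 in SD30 apices, a 5.94-fold difference. The fifteenth had 230 and 238 in SD30_LD7 apices and 29.1 and 48.5 in SD30 apices, or 6.23-fold. AT1G03710, the sixteenth, belongs with these. The seventeenth to nineteenth members ranged from 183 to 228 on the SD30_LD7 arrays and from 37.4 to 54.9 on the SD30 arrays. The 21st had 170.2 and 167 in SD30_LD7 apices and 49.8 and 58.8 in SD30 apices, a 3.12-fold difference, the smallest of the set. The twelfth had 226 and 253 in SD30_LD7 apices and 26.8 and 21.6 in SD30 apices (9.53-fold), and the 22nd had 154 and 177 in SD30_LD7 apices and 36.7 and 14.8 in SD30 apices (5.63-fold). These last members were at the floor on 1 short day array each.

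Over the set, 10 members differed by 10-fold or more, 9 by 5- to 10-fold and 4 by less, with the floor applied. The median log2 difference was 3.25, while over all 15922 probe sets bright enough to test it was -0.0021. All 23 members passed that filter on dim probe sets through their values after the shift, so neither figure supports the choice of the members. The gap between the lowest SD30_LD7 value and the highest SD30 value was 2.85-fold at the least, 8.42-fold in the median and 43.8-fold at the most.

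Most probe sets that were low in short days stayed low. Of the 7093 probe sets below 60 on both SD30 arrays, 6802 (95.9 percent) were also below 60 on both SD30_LD7 arrays, 252 lay between the limits on at least 1 array without reaching 150 on any, 10 reached 150 on 1 SD30_LD7 array and 29 on both. The opposite limits, below 60 on both SD30_LD7 arrays and 150 or more on both SD30 arrays, held for 42 probe sets, 0.185 percent of all. Of the 29 probe sets within the members' limits, 5 had a mean above 1000 in the group where they were high, SD30_LD7 (4 members and AT5G44630), and of the 42 opposite probe sets, 1 had such a mean in SD30. The medians of these means were close, 250 over the 29 in SD30_LD7 and 245 over the 42 in SD30. The plot of all probe sets shows both sets off the diagonal, as their limits require.

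**Figure D2:**
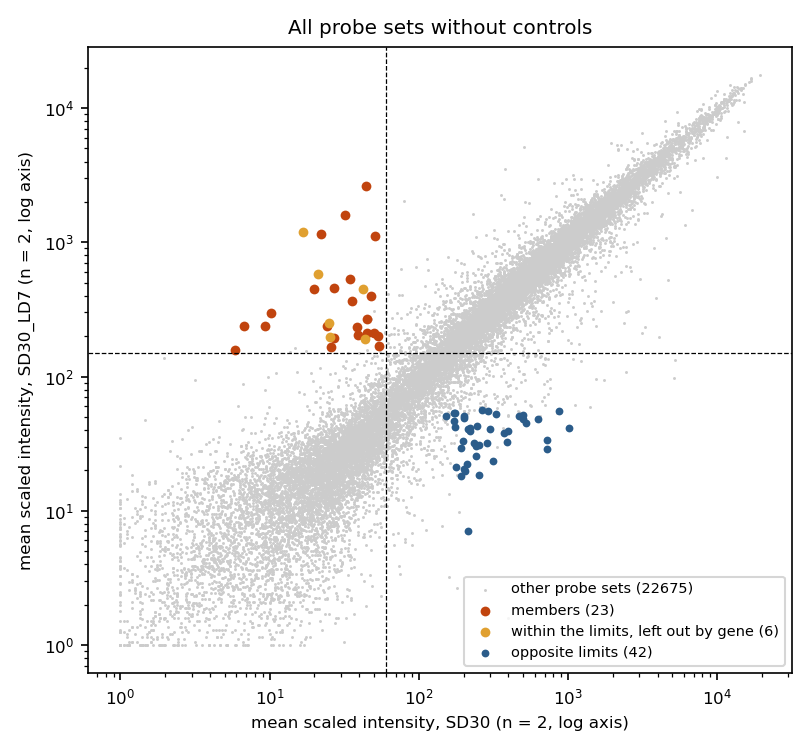
Mean scaled intensity of every probe set without controls in SD30_LD7 (vertical log axis) against SD30 (horizontal log axis), each a mean of 2 arrays, with means below 1 drawn at 1 and dashed lines at 60 and 150. The 23 members (orange) and the 6 probe sets left out by gene (yellow) lie at the upper left, and the 42 probe sets of the opposite limits (blue) lie at the lower right.

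The limits cut through a continuous range. Of the members, 10 had at least 1 value within 20 percent of a limit, and 26 further probe sets outside the genes left out missed on 1 of the 4 arrays, 9 of them on an SD30_LD7 array and 17 on an SD30 array. The named genes just outside, picked after their values were seen, show how close this was. AT3G26590, a MATE family transporter gene, had 231 and 196 in SD30_LD7 apices and 54.5 and 63.6 in SD30 apices. BZIP61, a bZIP transcription factor gene, had 264 and 350.5 in SD30_LD7 apices and 69.2 and 30.8 in SD30 apices. Each missed the limit of 60 on 1 short day array and otherwise had values like those of dimmer members. AT3G50280, an acyltransferase family gene, had 283 and 262 in SD30_LD7 apices and 74.1 and 57.9 in SD30 apices. AT3G16330 had 119 and 182 in SD30_LD7 apices and 23.8 and 43.8 in SD30 apices, and so missed on the other side.

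The replicate arrays after the shift differed in one direction for most members. The second SD30_LD7 array was the higher one for 19 of the 23 members, with a median ratio to the first of 1.19 and a range from 0.90 to 1.40. The 4 members higher on the first array, AT1G03710 among them, all had means below 300. Of the 11131 probe sets in the same intensity range on both SD30_LD7 arrays, 55.2 percent were higher on the second, with a median ratio of 1.02, and of the 1060 other probe sets called higher after the shift, 59.3 percent were, with a median of 1.03. Relative to the mean, the SD between the 2 SD30_LD7 samples was 12.4 percent in the median over members and 23.7 percent at the most. The second SD30 array was higher for 12 of the 23. The actin control's 3' over 5' ratio, which rises as RNA degrades, was 8.27 and 4.64 on the SD30_LD7 arrays and 6.51 and 5.72 on the SD30 arrays, the highest being on the array with the lower member values after the shift. The same ratio was 2.65 and 1.57 in SD30_LD7 and 1.78 and 2.04 in SD30 for GAPDH, and 3.27 and 2.36 in SD30_LD7 and 3.14 and 3.44 in SD30 for ubiquitin, whose highest value was on an SD30 array. The part of RNA integrity in the order of the arrays was not tested.

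**Figure D3:**
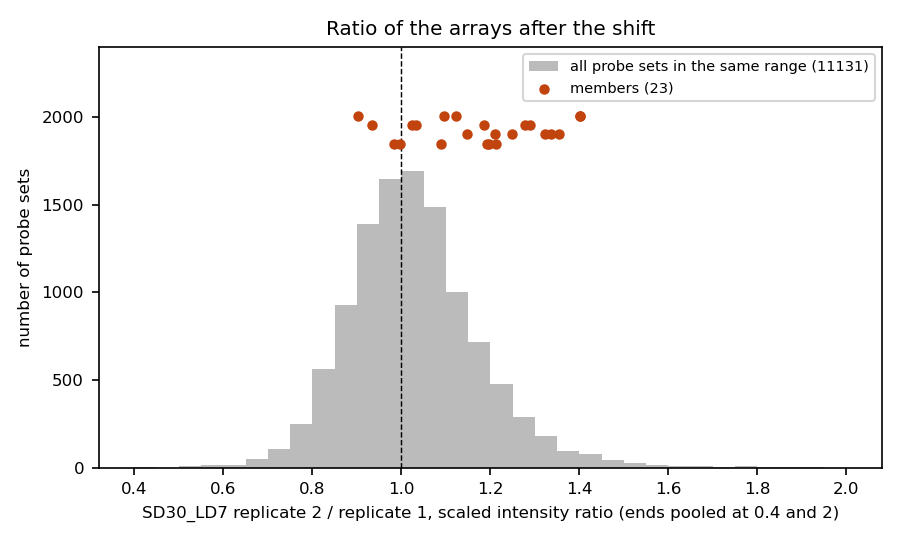
Ratio of the second to the first SD30_LD7 array for the 11131 probe sets in the members' intensity range (grey bars, number of probe sets on the vertical axis) and for the 23 members (orange points, whose height has no meaning). The points lie mostly to the right of the dashed line at equal intensity, with 19 of 23 above 1, while the bars centre close to it with a median of 1.02.

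Genes beside the named members on the chromosome are not part of the rule, and their differences were tested with limma in the fit over all 15922 probe sets, which called 6.80 percent of them higher and 8.20 percent lower at an adjusted p below 0.05. The 2 annotated genes on each side of the 4 named members come to 16 genes, of which 4 were measured by a probe set with 1 gene and 3 were bright enough to test. Several of the 16 are noncoding RNA genes or a pseudogene, and no such gene was among the 4 measured. The limma fit called 0 of the 3, and 0 had an unadjusted p below 0.05. AT5G02240, next to AT5G02230 and encoding an NAD(P)-binding protein, had 5660.4 and 5567 in SD30_LD7 apices and 6166 and 5309 in SD30 apices, a log2 difference of -0.03 ± 0.12 (SE, limma adjusted p = 0.92). AT4G19440, the nearest measured gene to AT4G19430, had 90.2 and 122 in SD30_LD7 apices and 130.4 and 131.5 in SD30 apices, a log2 difference of -0.32 ± 0.24 (limma adjusted p = 0.45).

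Near AT1G03710, AT1G03687 had 399 and 396 in SD30_LD7 apices and 339.6 and 333 in SD30 apices, a log2 difference of 0.24 ± 0.14 (limma adjusted p = 0.30). AT1G03720, directly beside AT1G03710, was too dim to test, with 26 and 38.7 in SD30_LD7 apices and 4 and 29.2 in SD30 apices. It stayed below 60 on every array while its neighbour passed 200. No neighbour of AT4G00870 within this distance was measured by a probe set with 1 gene, so the surroundings of that gene were not analysed here. A miss of the threshold in so few arrays does not show that these neighbours were unchanged.

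**Figure D4:**
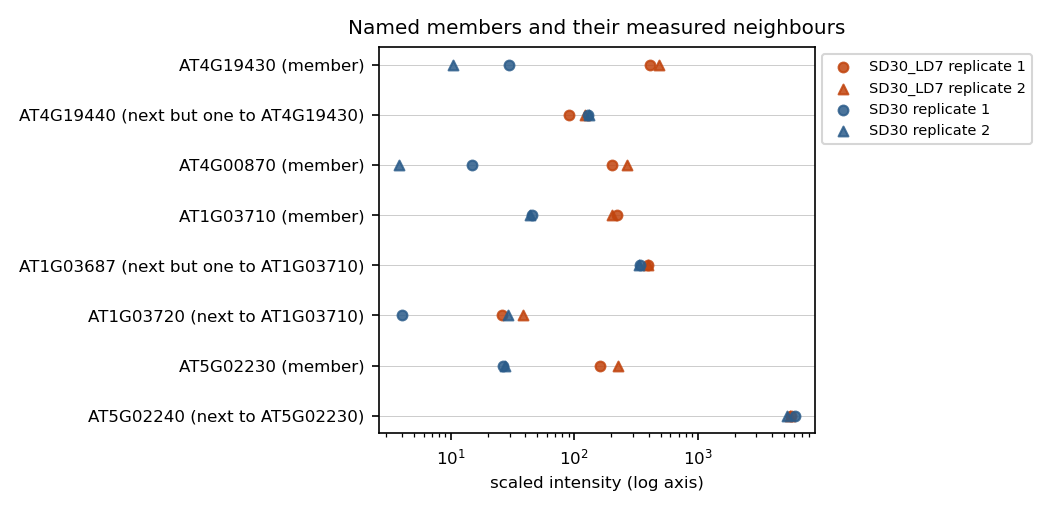
Scaled intensity (horizontal log axis) of the 4 named members and of their 4 measured neighbours on the SD30_LD7 arrays (orange) and the SD30 arrays (blue), with circles for replicate 1 and triangles for replicate 2. The groups are apart for each member, as the limits require. Of the neighbours, which the limits did not choose, AT4G19440 and AT1G03687 differ little between groups and AT5G02240 and AT1G03720 overlap.

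Known genes of flowering and of the tissues of the apex were read in the same samples. Their lists were chosen with earlier results of these data known. A listed gene counts as measured, here and below, only where the annotation pairs a probe set with it alone. The 8730 unnamed probe sets may hold other listed genes, whose values could not be assigned. Beside the shares of all probe sets called given above, of 14 flowering promoters listed by locus, 4 were measured and 3 changed in the limma fit. AGL42 and FD, the partner of FT, rose with log2 differences of 1.59 ± 0.18 (limma adjusted p = 7.7e-05) and 1.06 ± 0.16 (limma adjusted p = 6.9e-04). AGL19 fell to 23.1 and 12.5 in SD30_LD7 apices, both below the floor, against 103.7 and 145 in SD30 apices, a call lost with the floor at the 40th percentile (limma adjusted p = 0.38). With no filter on dim probe sets none of the calls of listed genes given here and below was kept. Of 12 floral organ and patterning genes, 3 were measured and 2 rose, UFO (2.21) and SPT (1.17). The median log2 difference over the list was 1.17, UFO included. UFO had passed the members' limits on all 4 arrays, so its rise is given as a description and not as a test. None of the 22 listed genes measured in this sense is a member, since UFO, the one within the limits, was left out by name. Whether any of the 19 unnamed members is a listed gene is not known here. Of 16 anther, tapetum and pollen genes, 4 were measured, and 3 of these were below 60 on all 4 arrays. AMS, a regulator of the tapetum, had 5.8 and 13.2 in SD30_LD7 apices and 27 and 27.3 in SD30 apices. EMS1, the 1 gene of this list bright enough to test, was not called (limma adjusted p = 0.089, unadjusted p below 0.05). Of 7 terpene synthase genes listed, 2 were measured and both were below 60 throughout. AT5G44630 is a terpene synthase gene outside that list and was left out of the set by name. It had 1205 and 1182 in SD30_LD7 apices and 25.5 and 8.2 in SD30 apices. The annotation paired no probe set with a gene of the cuticle and wax list or of the vascular list, so their values could not be read. The wax ester synthase gene WSD1, outside the list and also left out of the set by name, had 518.5 and 636 in SD30_LD7 apices and 13.2 and 29.3 in SD30 apices. AT1G02190, a wax synthesis gene left out in the same way, had 434 and 467 in SD30_LD7 apices and 33.4 and 51.5 in SD30 apices. AT5G44630, WSD1 and AT1G02190 all lie within the members' limits. Their low and high values restate those limits and stand for no other terpene or wax gene.

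Of the shoot meristem markers, CLV3, the stem cell peptide gene, had 72.6 and 87.9 in SD30_LD7 apices and 72.9 and 103.5 in SD30 apices. CLV3 and ULT1 were the 2 of 5 meristem markers measured, and limma called neither, 0 having an unadjusted p below 0.05. The 1 root hair marker measured of 3, EXPA7, was below 60 on all arrays. The 2 measured of 5 green leaf markers, LHCB4.3 and RCA, summed to 3880 and 3741 in SD30_LD7 apices and to 5537 and 3917 in SD30 apices. Of these, LHCB4.3 (a light-harvesting antenna protein) was up by 1.72 on the log2 scale. RCA, the Rubisco activase gene, had 3444 and 3327.5 in SD30_LD7 apices and 5410.2 and 3785.5 in SD30 apices, a log2 difference of -0.42 ± 0.15 that did not pass (limma adjusted p = 0.085), though it did without SD30 replicate 2 (limma adjusted p = 0.025). The 4 measured of 6 trichome and guard cell markers, of which SPCH fell and MUTE was below the floor on all arrays, summed to 501 and 523.5 in SD30_LD7 apices and to 658 and 576 in SD30 apices. The other measured markers of this list did not fall. TRY had a log2 difference of 0.27 ± 0.20 (limma adjusted p = 0.44) and FMA of 0.14 ± 0.29 (limma adjusted p = 0.82). The call of SPCH (log2 difference -0.57 ± 0.15, limma adjusted p = 0.026) did not hold when any single array was left out, the limma adjusted p then lying between 0.055 (SD30_LD7 replicate 2 left out) and 0.17 (SD30 replicate 1 left out). The part of these tissues in the members' values was not tested.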

How the data were processed

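Total RNA of dissected shoot apices was measured on 4 arrays, 2 per group, grouped by the growth conditions in the labels. The authors deposited linear intensities of 22746 probe sets and 64 controls, scaled alike: trimmed by 2 percent at each end, array means ran from 500.033 to 500.036. The sources used here do not name the signal software, and the number of arrays limits the precision. Replicate arrays correlated at 0.987 (SD30_LD7) and 0.985 (SD30) across probe sets.

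Genes came from the platform annotation, which gives 1 gene for 13513 probe sets, several for 503 and none for 8730, which are unnamed here. Symbols were looked up by gene identifier in RefSeq's TAIR10.1 table, which changed 0 of them. That table also gave the order of genes, and no coordinates are printed. The members, the gene lists and the rules for naming genes were chosen with earlier results of these data known. All members were to be named where paired with 1 gene, with all array values for regulators, the 15 brightest and the 3 dimmest after the shift, and unnamed members are given by their rank of brightness.

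Intensities were floored at 23.5, the 20th percentile, before log2 values were taken. For genes outside the set, limma 3.58.1 in R 4.3.3 (eBayes with trend, two-sided) compared the groups over the 15922 probe sets left after the dimmest 30 percent by mean were dropped (9.90 prior and 2 residual degrees of freedom), with Benjamini-Hochberg adjusted p-values at 0.05. The procedure was tested on simulated data. Figures used matplotlib 3.10.9 in Python 3.11.15. Alternatives were other limits, floors, scalings and filters, a pseudocount of 16 (log2 scale), no trend, a replicate block and leaving out each array.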

Additional observations from a re-analysis of the deposited data

Results flagged for a closer look

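A control, AFFX-r2-At-U12639_at, enters no comparison but lay within the same limits as the members. It had a mean intensity of 269 on the SD30_LD7 arrays (230.4 and 307) and of 17.95 on the SD30 arrays (25.2 and 10.7). It drew attention as a signal in data outside the main measurement, and it too was higher on the second SD30_LD7 array.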

How the results depend on the processing

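The size of the set followed its limits. Against 23 members, limits of 40 and 150 gave 11, limits of 80 and 150 gave 39, and limits of 60 and 100 gave 38. Leaving out 1 array, which only drops a condition and so must keep every member, gave 26 to 35, the most without SD30 replicate 1. Quantile normalization gave 24 and median centring 23, and the 23 members remained under both. With limits of 60 and 200, 17 of the 23 remained. The median log2 difference of 3.25 was 1.23 with the floor at the 40th percentile, where the floor lies above every short day value of the members, and 2.90 with a pseudocount, and 3.10 to 3.34 with 1 array left out. Against 2388 limma calls (1083 higher, 1305 lower), there were 152 with no filter on dim probe sets, 1532 without an intensity trend, and 1369 to 1828 with 1 array left out, the fewest without SD30 replicate 2. Median centring gave 1302 higher and 1049 lower. With no filter all 7 called genes of the lists missed the threshold (adjusted p from 0.051 for LHCB4.3 to 0.18 for SPCH), and the 1 listed gene called was the dim AMS. The neighbour AT5G02240, not called under any alternative, had a log2 difference of 0.014 with quantile normalization and 0.028 with median centring, and of -0.14 to 0.081 with 1 array left out. The labels of same-numbered samples share only a replicate number, and deviations of same-numbered arrays correlated at 0.05 across probe sets. That correlation cannot show whether these samples were grown or handled together. With the replicate block, 2741 probe sets were called, 0 of the neighbours, and 8 genes of the lists in place of 7, RCA being added (limma adjusted p = 0.024). The closest proteins of the members were not analysed here. Brightness limits what can be said of members at the floor, whose folds are bounds.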
